A study of Mus musculus with 6 samples.

Results

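The genes described here act in the oxidation of fatty acids, in the making of ketone bodies and in the response to the PPAR nuclear receptors. The list names 32 genes and was drawn up by function, with earlier results of these data known. Probe sets of the array that name a single gene on the list were used, and where a gene had several, the one with the highest mean over all 6 arrays was kept. Of the 32 genes, 31 had such a probe set, of 19938 genes on the array, and Acsl1 was not analysed here. After removal of dim genes, 25 of the 31 were among the 12071 genes tested. The values come from epithelial cells sorted from mouse colon as positive for EpCAM and negative for CD45, hybridised to 6 Affymetrix arrays. All mice were wild-type BALB/c males aged 6 weeks that were starved for 36 h and then fed again for 24 h. On 3 arrays the mice received no treatment (re-fed), and on the other 3 they received antibiotics during the 24 h of feeding; the antibiotics are not named in the sources used here. How many mice one array stands for is not given in the sources used here, so the p-values measure the spread between these arrays.

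In mitochondrial oxidation of a long-chain fatty acid, the chain is first bound to coenzyme A and handed across the inner membrane on carnitine. It is then shortened step by step by a dehydrogenase, a hydratase, a second dehydrogenase and a thiolase. These enzymes have versions that prefer long, medium or short chains. Peroxisomes run a related pathway for very long and branched chains. Many of these enzymes are targets of PPAR receptors, which bind fatty acids and switch on genes for their use. Epithelial cells of the colon are known to take much of their energy from butyrate, a short-chain fatty acid made by gut bacteria. Butyrate joins the mitochondrial pathway at its short-chain end.

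None of the 25 members tested passed limma's test after Benjamini-Hochberg adjustment over all genes, where 7 genes (0.058%) did. Levels of 11 of the 15 mitochondrial members, the carnitine shuttle included, were nevertheless lower on every array with antibiotics than on any array without, by 1.19 to 1.59 times. Such a separation of the groups downward held for 13 of 25 members, against 10.7% of all genes tested. In Acads, counted among these, the groups met at 10.40 after rounding. At an unadjusted p under 0.05 there were also 13 members, Pdk4 among them and Acads not, all lower with antibiotics, against 7.32% of all genes on the lower side. The median log2 difference, antibiotics minus re-fed, was -0.26 over the 25 members and 0.0033 over all genes, with 21 members below 0 and 4 above. In sorted bulk cells, fewer cells of one kind and less RNA per cell cannot be told apart. Every difference below is a log2 difference in this direction, and levels are log2 expression values after quantile normalisation.

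As deposited, 4 arrays appear to share one normalisation, namely antibiotics replicates 1 and 2 together with re-fed replicates 2 and 3. In each pair of these arrays 67 to 92 probe sets held the very same value, against 0 in any pair with another array. These 4 arrays are called the common run, a grouping read from the values and not from a label. Array medians ranged from 5.63 to 6.17 before quantile normalisation. Antibiotics replicate 3 stood apart, with the lowest median and 10829 distinct values against at least 34568 on each other array. Epcam, the surface protein used for the sort, differed by -0.036 (SE 0.10) over 6 arrays and by 0.048 in the common run. Ptprc, which encodes CD45, lay between 5.30 and 5.54 on all 6 arrays, under the floor for dim signal at 5.81.

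**Figure D1:**
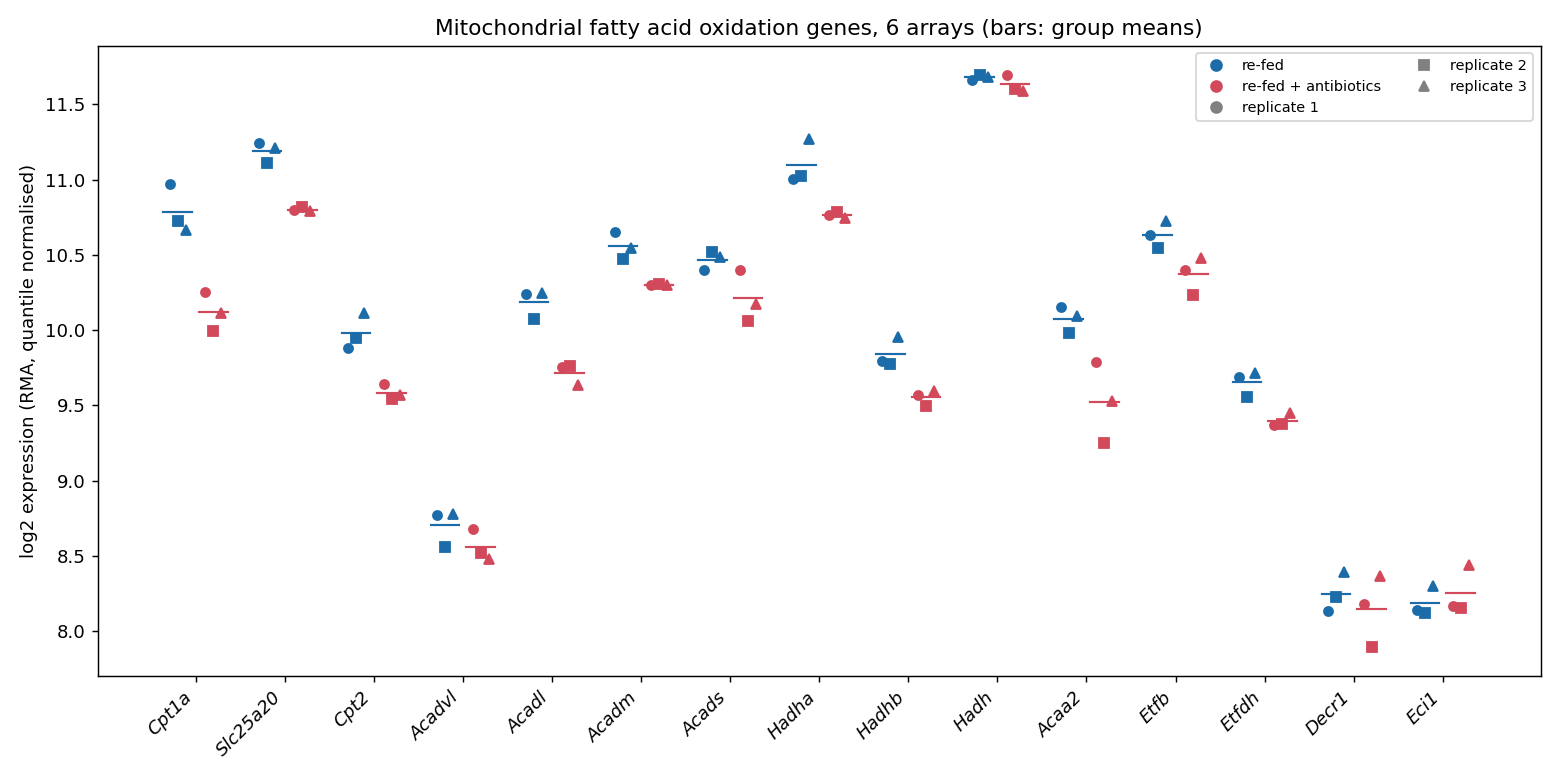
Levels (log2 expression) of the 15 mitochondrial members on each array, with re-fed arrays in blue, arrays with antibiotics in red, marker shapes for the replicates and short bars for the group means. The colours do not overlap for 11 genes, though those of Acads meet at 10.40, while Acadvl, Hadh, Decr1 and Eci1 overlap.

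The carnitine shuttle stood apart between the groups at each of its 3 steps. Cpt1a, the outer-membrane enzyme that links long-chain fatty acids to carnitine and sets the pace of the pathway, was at 10.97, 10.73 and 10.66 in re-fed replicates 1 to 3 and at 10.25, 10.00 and 10.11 with antibiotics. The lowest re-fed array thus lay above the highest array with antibiotics, and the difference was -0.67 (SE 0.12, 95% interval -0.94 to -0.40, adjusted p = 0.0868), a 1.59-fold lower level. Slc25a20, the translocase that carries acylcarnitine inward, was at 11.25, 11.11 and 11.21 without and at 10.80, 10.82 and 10.79 with antibiotics. Its arrays with antibiotics were nearly level with each other (SD 0.013), and the difference was -0.39 (SE 0.096, adjusted p = 0.184). Cpt2, which returns the chain to coenzyme A inside the mitochondrion, was at 9.88, 9.95 and 10.12 without and at 9.64, 9.54 and 9.57 with antibiotics, a difference of -0.40 (SE 0.11, adjusted p = 0.203). Within the common run the differences were -0.57 for Cpt1a, -0.36 for Slc25a20 and -0.44 for Cpt2.

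The acyl-CoA dehydrogenases, which open each round, did not differ alike. Acadl, the long-chain enzyme, was at 10.24, 10.07 and 10.25 in the re-fed arrays and at 9.76, 9.76 and 9.63 with antibiotics. Its groups were apart and the difference was -0.47 (SE 0.10, adjusted p = 0.147), or 1.38-fold. Acadm, the medium-chain enzyme, was at 10.65, 10.47 and 10.54 without and at 10.30, 10.31 and 10.30 with antibiotics (-0.25, SE 0.099, adjusted p = 0.343). Acads, the short-chain enzyme that takes butyryl-CoA, was at 10.40, 10.52 and 10.48 without and at 10.40, 10.06 and 10.17 with antibiotics. For Acads the lowest re-fed array and the highest array with antibiotics met at 10.40, and the interval of its difference of -0.26 ran from -0.52 to 0.0039. Acadvl, the very-long-chain enzyme of the inner membrane, overlapped between the groups, with 8.56 to 8.78 without and 8.48 to 8.68 with antibiotics (-0.14, 95% interval -0.40 to 0.11).

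Both subunits of the trifunctional protein, which carries out the later steps on long chains, were lower on all arrays with antibiotics. Hadha, the alpha subunit, was at 11.00, 11.03 and 11.27 without and at 10.77, 10.79 and 10.74 with antibiotics (-0.33, SE 0.11, adjusted p = 0.275). Hadhb, the beta subunit, was at 9.79, 9.78 and 9.95 without and at 9.57, 9.50 and 9.60 with antibiotics (-0.29, SE 0.10, adjusted p = 0.302). A further probe set of Hadhb gave -0.33. Acaa2, the mitochondrial thiolase for shorter chains, was at 10.15, 9.98 and 10.10 without and at 9.79, 9.25 and 9.53 with antibiotics. Its groups were apart, with a difference of -0.55 (SE 0.14, adjusted p = 0.195). Hadh, the dehydrogenase for medium and short chains, overlapped instead, with 11.66 to 11.70 without and 11.59 to 11.70 with antibiotics (-0.050, 95% interval -0.26 to 0.17).

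Electrons from the acyl-CoA dehydrogenases pass to the electron transfer flavoprotein and on to ubiquinone. Etfb, its beta subunit, was at 10.63, 10.55 and 10.72 without and at 10.40, 10.24 and 10.48 with antibiotics (-0.26, SE 0.11, adjusted p = 0.372). Etfdh, the enzyme that passes the electrons to ubiquinone, was at 9.69, 9.55 and 9.72 without and at 9.37, 9.37 and 9.45 with antibiotics (-0.26, SE 0.10, adjusted p = 0.344). Neither gene overlapped between the groups. The helpers for unsaturated chains did overlap. Decr1, the dienoyl-CoA reductase, ranged from 8.13 to 8.39 without and from 7.89 to 8.36 with antibiotics (-0.10, 95% interval -0.41 to 0.21). Eci1, an enoyl-CoA isomerase, ranged from 8.12 to 8.30 without and from 8.15 to 8.44 with antibiotics (0.063, 95% interval -0.20 to 0.33), and its sign changed in the common run (-0.053). Of the 15 mitochondrial members, 14 lay below 0. In 11 of the 15 the groups did not overlap (10.7% of all genes, downward). An unadjusted p under 0.05 was found for 10, all lower (7.32% of all genes). The median of the 15 was -0.26, and -0.32 in the common run, where all 15 lay below 0.

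**Figure D2:**
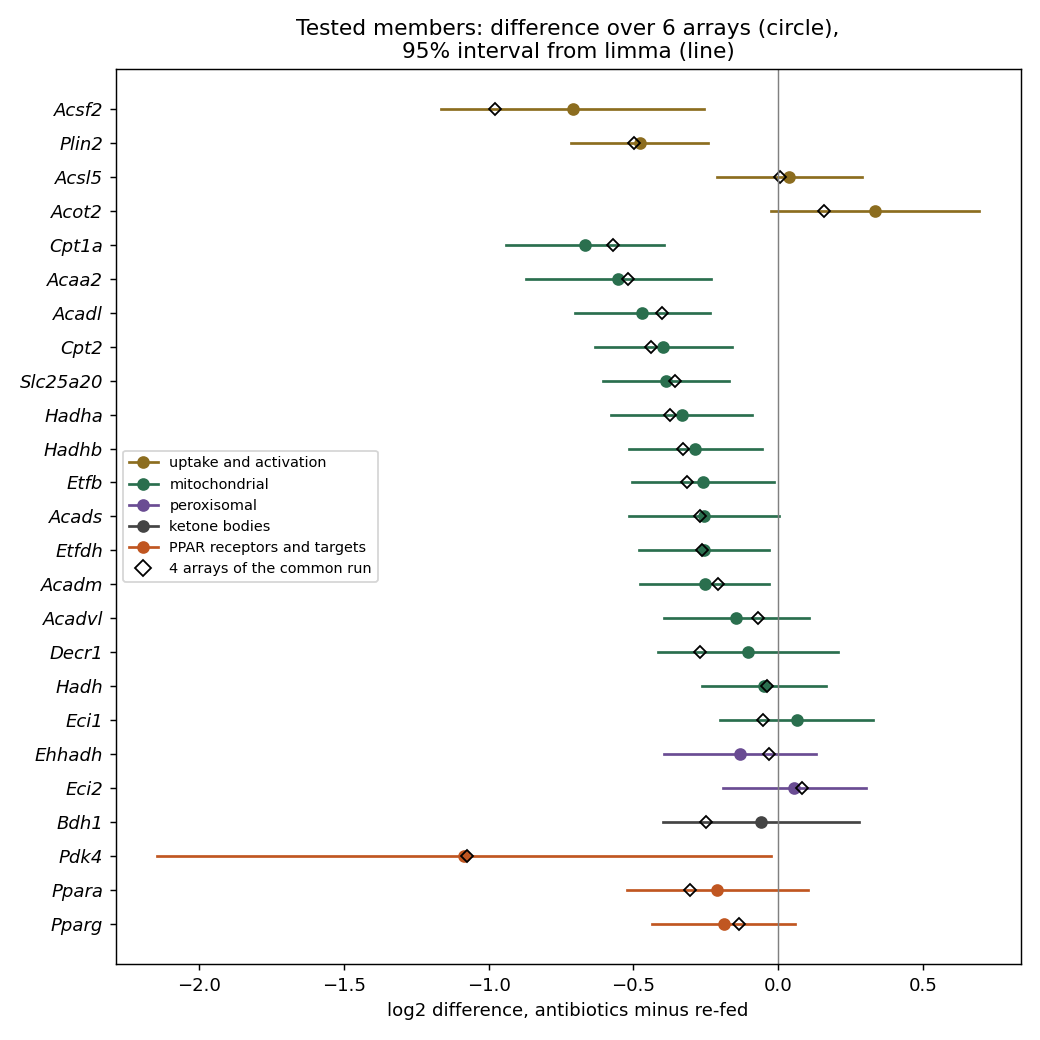
Log2 difference, antibiotics minus re-fed, of the 25 tested members (circles, coloured by step) with 95% intervals from limma, and the difference within the 4 arrays of the common run (open diamonds). The interval lies below 0 for Acsf2, Plin2, Pdk4 and 10 mitochondrial members, and Pdk4 has the widest interval, from -2.14 to -0.025.

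Promoter sequences are shown because PPAR receptors, paired with RXR, bind a direct repeat of AGGTCA with a single base between, and because Hadha and Hadhb lie head to head. The sequences are RefSeq's for GRCm38.p6, in windows of 300 bases with 250 before the start of the gene. Of the members with a probe set, 26 had a window. The repeat AGGTCANAGGTCA was searched on both strands with up to 2 of its 12 fixed letters differing, and 3.86% of 32851 windows of all genes held such a match. Among members, 3 of 29 windows (10.3%), of 3 genes, did, and in capitals the matches are marked. Fabp1 held the match with 1 letter differing, which 0.554% of all windows held, and it begins 67 bases before the start. Plin2 held one with 2 letters differing that begins 225 bases before the start. Slc25a20 (chr9:108661886-108662185, plus strand) held the third, AGGTGAAAGGTCG, which begins 6 bases after the start. The element TNAAGGTCA of estrogen-related receptors, whose last 6 letters are one arm of the repeat, was in no member's window and in 1.28% of all windows. In the windows of Cpt1a and of the pair Hadha and Hadhb neither motif was found, so they carry no capitals. The starts of Hadha (minus strand) and Hadhb (plus strand) are 273 bases apart on chromosome 5, and the window printed for Hadhb covers most of the stretch between them. The 250 bases before each start read, 5′ to 3′ in the direction of the gene:
Cpt1a, chr19:3323051-3323300, plus strand: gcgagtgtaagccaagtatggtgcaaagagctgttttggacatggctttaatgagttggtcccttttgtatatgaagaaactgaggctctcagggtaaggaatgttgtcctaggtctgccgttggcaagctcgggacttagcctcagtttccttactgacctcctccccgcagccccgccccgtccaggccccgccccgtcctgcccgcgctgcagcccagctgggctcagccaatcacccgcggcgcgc
Hadhb, chr5:30155003-30155252, plus strand: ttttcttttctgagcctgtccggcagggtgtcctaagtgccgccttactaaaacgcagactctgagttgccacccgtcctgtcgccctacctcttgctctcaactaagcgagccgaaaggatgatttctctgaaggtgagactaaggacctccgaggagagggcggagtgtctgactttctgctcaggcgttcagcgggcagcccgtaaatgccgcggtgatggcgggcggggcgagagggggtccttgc
Plin2, chr4:86670060-86670309, minus strand: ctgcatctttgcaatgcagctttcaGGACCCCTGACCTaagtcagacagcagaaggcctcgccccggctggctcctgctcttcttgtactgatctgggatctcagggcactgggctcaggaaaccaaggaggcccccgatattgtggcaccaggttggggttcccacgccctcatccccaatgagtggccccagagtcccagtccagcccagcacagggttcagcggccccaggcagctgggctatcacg
Fabp1, chr6:71199629-71199878, plus strand: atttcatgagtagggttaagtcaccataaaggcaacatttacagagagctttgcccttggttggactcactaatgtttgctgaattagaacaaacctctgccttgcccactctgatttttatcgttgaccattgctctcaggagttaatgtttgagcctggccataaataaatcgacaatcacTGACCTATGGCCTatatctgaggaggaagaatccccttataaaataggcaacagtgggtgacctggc
A match is a stretch of letters and not a measured binding site. Cpt1a differed by -0.67 with no match in its window, and Plin2 by -0.48 and Slc25a20 by -0.39 with a match each. Fabp1, with the closest match, lay under the floor for dim signal on all 6 arrays. Whether matches go with differences was not tested, and sequence outside the windows was not searched.

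Genes of uptake, activation and storage went both ways. Plin2, which coats lipid droplets, was at 10.83, 10.97 and 10.99 without and at 10.40, 10.56 and 10.39 with antibiotics. The groups were apart, with a difference of -0.48 (SE 0.10, 95% interval -0.71 to -0.24, adjusted p = 0.143) and -0.50 in the common run. Acsf2, a mitochondrial enzyme that activates medium-chain fatty acids, was at 9.16, 9.80 and 10.08 without and at 8.92, 9.0 and 8.99 with antibiotics. Re-fed replicate 1 lay close to the arrays with antibiotics, and the difference of -0.71 (SE 0.20, adjusted p = 0.23) was -0.98 in the common run, which leaves that array out and in which Acsf2 passed (adjusted p = 0.0361). Of all genes, 0.447% passed in the common run. Without re-fed replicate 3 the difference of Acsf2 was -0.51. The other probe set of Acsf2 gave -0.69 over 6 arrays.

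Acsl5, a long-chain acyl-CoA synthetase of the gut, overlapped fully, with 9.12 to 9.38 without and 9.22 to 9.37 with antibiotics (0.038, 95% interval -0.21 to 0.29), and its difference was -0.040 relative to all genes with the deposited scaling. Acot2, a mitochondrial thioesterase that removes coenzyme A again, was at 8.06, 7.95 and 8.23 without and at 8.37, 8.13 and 8.75 with antibiotics (0.33, 95% interval -0.025 to 0.69). It is the member farthest above 0, with overlapping groups, and its difference was 0.17 without antibiotics replicate 3 and 0.16 in the common run. Acot1, its cytosolic paralog, and the fatty acid binding protein Fabp1 lay under the floor, at 4.81 to 5.44 and at 3.75 to 4.01. Angptl4, a secreted inhibitor of lipoprotein lipase and a common marker of PPAR activity, was also under the floor, at 5.17 to 5.70 without and 5.17 to 5.56 with antibiotics. Acot1 and Acot2 are near-identical in sequence, so either probe set may pick up the other gene, which was not tested.

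Peroxisomal members overlapped between the groups. Ehhadh, the bifunctional enzyme of peroxisomal oxidation, was at 8.87, 8.53 and 8.59 without and at 8.59, 8.47 and 8.54 with antibiotics (-0.13, 95% interval -0.39 to 0.13). Eci2, a peroxisomal enoyl-CoA isomerase, ranged from 7.03 to 7.30 without and from 7.21 to 7.30 with antibiotics (0.055, 95% interval -0.19 to 0.30). Acaa1b, a peroxisomal thiolase, lay under the floor at 4.43 to 5.03. Its paralog Acaa1a, which is not on the list, was above the floor and differed by -0.070 (SE 0.15), with 0.087 in the common run. For ketone bodies the list holds Bdh1, which interconverts acetoacetate and beta-hydroxybutyrate. Bdh1 was at 9.55, 9.60 and 9.55 without and at 9.33, 9.32 and 9.87 with antibiotics. Antibiotics replicate 3 was above all re-fed arrays and the other two were below them, so the difference of -0.060 (95% interval -0.40 to 0.28) became -0.24 without that array.

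Among PPAR receptors and further targets, 3 of 5 genes were above the floor. Ppara, the receptor best known for driving fatty acid oxidation, was at 7.50, 7.84 and 7.98 without and at 7.71, 7.50 and 7.48 with antibiotics (-0.21, 95% interval -0.52 to 0.10), and its difference ran from -0.35 to -0.11 with 1 re-fed array left out. Pparg, abundant in colonic epithelium, was at 10.07, 9.86 and 10.09 without and at 9.92, 9.76 and 9.77 with antibiotics (-0.19, 95% interval -0.43 to 0.059). Both receptors overlapped between the groups. Ppard, the third receptor, was at 10.96, 10.94 and 11.07 without and at 10.86, 10.90 and 10.86 with antibiotics (-0.12, SE 0.096, adjusted p = 0.645), with groups that were narrowly apart.

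Pdk4, the kinase that shuts pyruvate dehydrogenase when fatty acids are burnt, varied most within a group. It was at 8.04, 8.99 and 8.92 in re-fed replicates 1 to 3 and at 6.92, 8.84 and 6.94 with antibiotics. Antibiotics replicate 2 thus lay among the re-fed arrays, while the other two lay below all of them, and the difference was -1.08 (SE 0.47, adjusted p = 0.384). Without antibiotics replicate 2 it was -1.72, and without antibiotics replicate 1 it was -0.76. Fabp2, the intestinal fatty acid binding protein, also had antibiotics replicate 2 among the re-fed arrays, with 10.35, 11.15 and 11.54 without and 9.84, 11.09 and 9.74 with antibiotics (-0.79, SE 0.38, adjusted p = 0.423). Its difference was -1.22 without antibiotics replicate 2 and -0.53 without re-fed replicate 3. Vnn1, a pantetheinase that follows PPAR activity, and Cyp4a10, which hydroxylates the end of the chain, were under the floor. Vnn1 was at 5.09, 5.19 and 5.70 without and at 4.98, 4.76 and 4.92 with antibiotics, and Cyp4a10 ranged from 4.14 to 5.26.

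**Figure D3:**
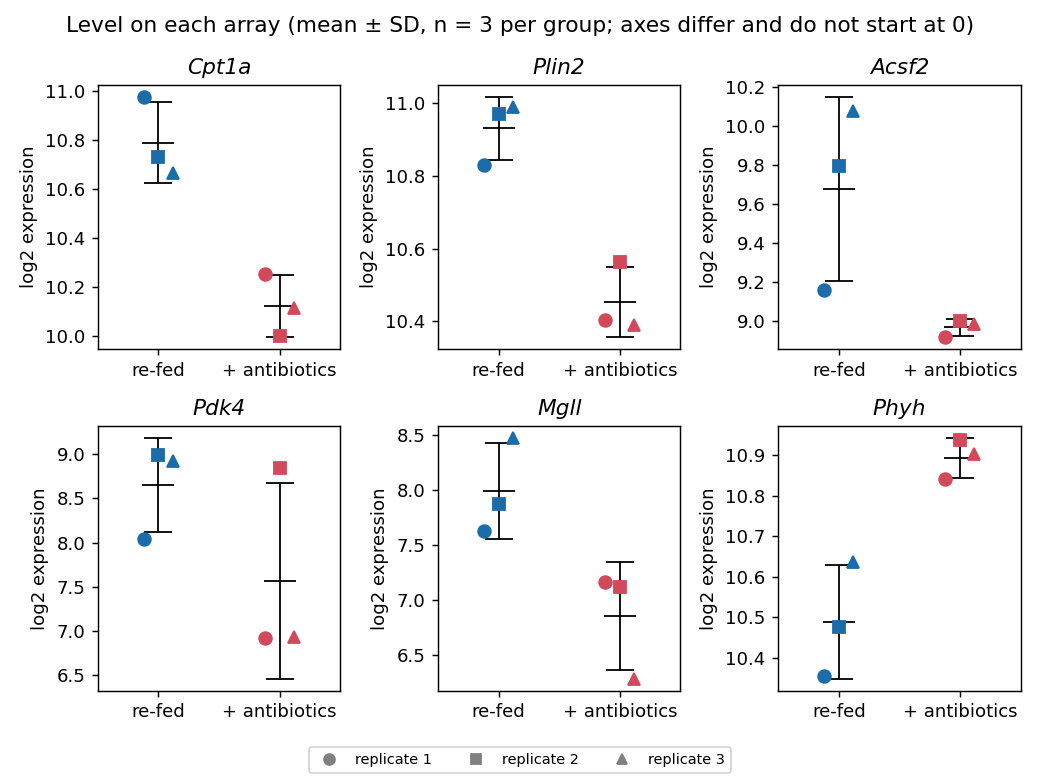
Level (log2 expression) on each array for Cpt1a, Plin2, Acsf2, Pdk4, Mgll and Phyh, with the mean ± SD of 3 arrays per group. The groups are apart for all but Pdk4, where antibiotics replicate 2 (8.84) lies among the re-fed arrays, and only Phyh is higher with antibiotics.

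Further genes of the pathway were read from lists written by function, also with earlier results of these data known. Of the 78 tested none passed over all genes. At an unadjusted p under 0.05, 12 were lower (7.32% of all genes) and 2 higher (5.3% of all genes). With array weights 12 passed on the lower side and 2 on the higher, where 9.68% of all genes passed in either direction. Mgll passed with the deposited scaling (adjusted p = 0.00139), where 45 of all 12071 genes did. With that scaling the adjusted p followed the size of the difference and not the spread of each gene. Sult2b1 passed with median centring (adjusted p = 0.0399), as did 62 of all genes. Of 19 other peroxisomal genes tested, 4 had an unadjusted p under 0.05 on the lower side (7.32% of all genes) and 2 on the higher (5.3% of all genes). Abcd3, a transporter of the peroxisomal membrane, was at 10.09, 9.94 and 10.08 without and at 9.61, 9.58 and 9.54 with antibiotics (-0.46, SE 0.099, adjusted p = 0.138). Pex11a, which acts in peroxisome division and is a PPAR target, differed by -0.30 (SE 0.11, adjusted p = 0.318). Phyh, which starts the alpha-oxidation of branched chains, ran the other way, at 10.36, 10.48 and 10.64 without and 10.84, 10.94 and 10.90 with antibiotics (0.40, SE 0.11, adjusted p = 0.204). The median of this list was -0.070.

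Of 17 other mitochondrial genes tested, 12 lay below 0, with a median of -0.082. An unadjusted p under 0.05 was found for 5, all lower (7.32% of all genes on that side). Acad11, an acyl-CoA dehydrogenase, was at 10.51, 10.51 and 10.68 without and at 10.10, 10.26 and 10.06 with antibiotics (-0.43, SE 0.11, adjusted p = 0.185). Acadsb, of isoleucine breakdown, differed by -0.40 (SE 0.12, adjusted p = 0.258). Pcca, a subunit of the carboxylase that takes up propionyl-CoA, differed by -0.43 (SE 0.13, adjusted p = 0.26). In these 3 genes the groups did not overlap.

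Of 15 other genes of uptake and activation, 10 lay below 0 and the median was -0.051. Only 1 had an unadjusted p under 0.05, on the lower side (7.32% of all genes). That gene was Mgll, a lipase that releases fatty acids from monoglycerides, at 7.63, 7.87 and 8.47 without and 7.16, 7.12 and 6.29 with antibiotics (-1.13, SE 0.26, adjusted p = 0.162), a 2.20-fold lower level. The thioesterase Acot9 differed by -0.39 (SE 0.23) and by 0.035 in the common run. Of 11 other PPAR targets, 8 lay below 0, with a median of -0.13. At an unadjusted p under 0.05 there were 2, both lower (7.32% of all genes on that side). Sult2b1, a sulfotransferase for cholesterol, was at 9.60, 9.45 and 9.66 without and 9.02, 9.11 and 9.07 with antibiotics (-0.50, SE 0.10, adjusted p = 0.117). Cyp2j6, a cytochrome P450, differed by -0.41 (SE 0.15) and the cholesterol exporter Abca1 by -0.31 (SE 0.18), both with overlapping groups.

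Partners and coregulators of the receptors varied little. All 14 tested lay between -0.14 and 0.15, with a median of -0.035 and 0 at an unadjusted p under 0.05. Hnf4a, a nuclear receptor that governs intestinal genes, differed by -0.13 (SE 0.098, adjusted p = 0.62) and Esrra, an estrogen-related receptor, by 0.13 (SE 0.10, adjusted p = 0.637). In ketone body metabolism, Oxct1, which returns ketone bodies to energy use, differed by -0.12 (SE 0.12) and Aacs, which uses acetoacetate for lipid synthesis, by 0.12 (SE 0.17).

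Genes next to the pathway are set beside it without a test of the difference between lists. The tricarboxylic acid cycle, which burns the acetyl-CoA that oxidation yields, held 16 genes tested, with a median of -0.028 and 0 at an unadjusted p under 0.05. In it 10 genes lay below 0 and 6 above. Its members with the smallest p were Suclg1 (-0.19, SE 0.11), Idh3a (-0.27, SE 0.14) and Idh3b (0.21, SE 0.13). Of 11 genes of fatty acid synthesis, 3 had an unadjusted p under 0.05 on the lower side (7.32% of all genes) and 3 on the higher (5.3% of all genes), with a median of 0.02 (0.0205). Fasn, the fatty acid synthase, was at 9.27, 8.98 and 9.18 without and 9.85, 9.32 and 9.82 with antibiotics (0.52, SE 0.16, adjusted p = 0.255), and the lipogenic regulator Srebf1 differed by 0.47 (SE 0.10, adjusted p = 0.147). Acacb, whose product malonyl-CoA blocks the enzyme encoded by Cpt1a, was at 6.90, 7.03 and 7.09 without and 6.59, 6.53 and 6.39 with antibiotics (-0.50, SE 0.11, adjusted p = 0.127). All 3 genes had groups that did not overlap.

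**Figure D4:**
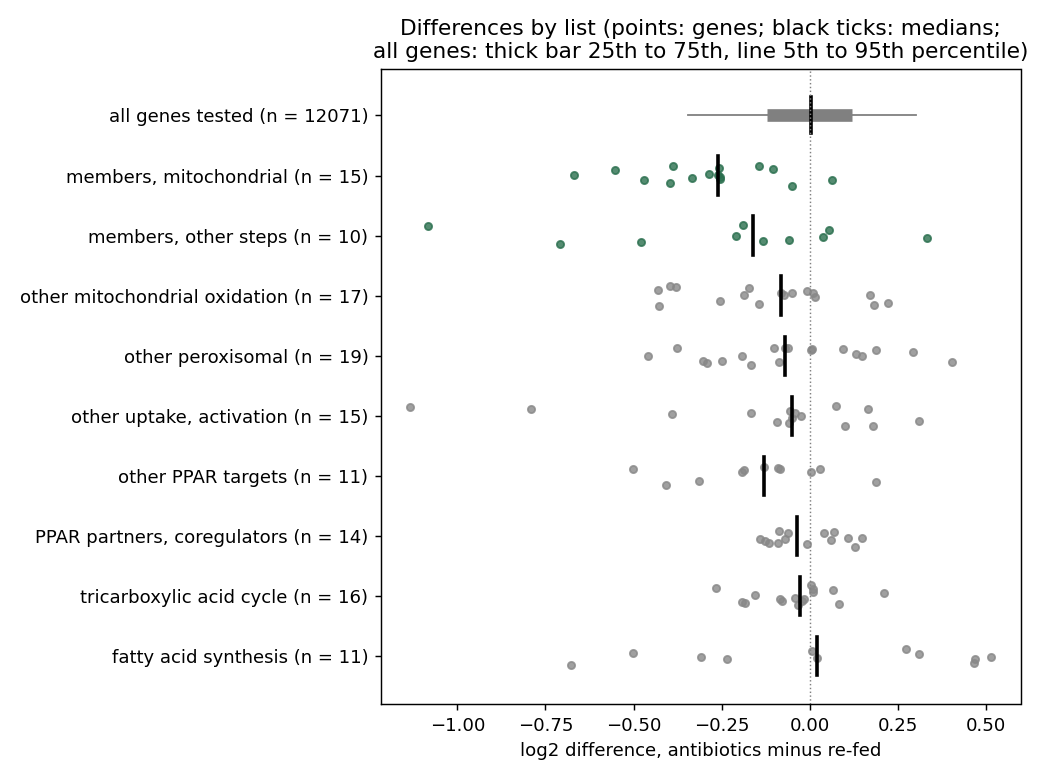
Log2 differences, antibiotics minus re-fed, of the genes tested in each list (points, spread vertically for legibility) with their medians (black ticks), below all 12071 genes tested (thick bar, the quartiles; line, all but the outer tails). The median is -0.26 for the mitochondrial members, against -0.082 for other mitochondrial oxidation genes, -0.028 for the tricarboxylic acid cycle and 0.0033 for all genes.

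Markers of cell types moved with the groups to different degrees, and their part in the module's differences was not tested. Crypt-base and cycling cells had 15 of 17 markers measured, with a mean level of 7.30 to 7.45 on the re-fed arrays and 7.46 to 7.94 with antibiotics, so the groups were barely apart. Over the 13 markers above the floor they overlapped, with mean deviations of -0.16, -0.06 and -0.20 without and 0.098, -0.085 and 0.41 with antibiotics. Mcm5 (0.67, SE 0.17), Myb (0.51, SE 0.15) and Ccna2 (0.63, SE 0.20) had the smallest p in that list, and 11 of 13 tested genes lay above 0. The median of the 13 was 0.33, and 0.19 in the common run. At an unadjusted p under 0.05, 7 were higher (5.3% of all genes) and 0 lower (7.32% of all genes). Absorptive colonocytes, all 20 markers measured, had a mean level of 11.88 to 12.16 without and 11.71 to 11.98 with antibiotics, which overlap. There 11 markers lay below 0 and 9 above, with a median of -0.072 and a highest difference of 0.52. At an unadjusted p under 0.05, 6 were lower (7.32% of all genes) and 1 higher (5.3% of all genes). The smallest p in that list belonged to Cyp2c55 (-1.33, SE 0.19), Scnn1a (-0.57, SE 0.12) and Slc9a3 (-0.63, SE 0.15), all lower. Goblet cell markers, 10 of 11 measured, ran from 11.14 to 11.46 without and from 10.73 to 11.11 with antibiotics, so these groups were barely apart too. That separation rests on Retnlb, the marker farthest below 0. In this list 9 of 10 lay below 0, with a median of -0.20. At an unadjusted p under 0.05 there were 3, all lower (7.32% of all genes). Retnlb, a secreted goblet cell protein, fell, at 8.22, 9.13 and 9.25 without and 7.09, 6.87 and 7.16 with antibiotics (-1.83, SE 0.24, adjusted p = 0.0441). That call was lost with no filter (adjusted p = 0.102) and on leaving out any single array but re-fed replicate 1, with adjusted p from 0.0687 to 0.218. Spink4 (-0.59, SE 0.23) and Atoh1 (-0.47, SE 0.20) followed in that list by p, and were at -0.27 and -0.24 without antibiotics replicate 2. Markers of enteroendocrine and tuft cells, 10 of 10 measured, ran from 6.52 to 6.74 and from 6.18 to 6.86.

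Adipocytes, whose genes overlap with PPAR targets, had 8 of 9 markers measured and 5 of them under the floor, Adipoq, Fabp4 and Lep included, at a mean level of 5.25 to 5.38 without and 5.33 to 5.42 with antibiotics. Of T cell markers 8 of 9 measured were under the floor, at 5.05 to 5.20 and 5.07 to 5.21. Of B and plasma cell markers 4 of 6 were, at 4.98 to 5.04 and 5.11 to 5.21, and of myeloid markers 7 of 9, at 5.37 to 5.59 and 5.45 to 5.63. Stroma and endothelium had 6 of 12 under the floor, at 5.87 to 6.01 and 5.92 to 6.04, and small intestine 7 of 11, at 5.73 to 5.90 and 5.57 to 5.80. These ranges overlap except for B and plasma cells, whose 2 markers above the floor overlapped. Pan-epithelial genes, all 9 measured, ran from 11.75 to 11.81 without and from 11.65 to 11.67 with antibiotics, which are apart. Krt18, a keratin, differed there by -0.59 (SE 0.094, adjusted p = 0.0692), and the transcription factors Cdx2 by -0.32 (SE 0.11) and Cdx1 by 0.33 (SE 0.12).

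The count of members that passed depended on how the arrays were weighted. With array weights, which gave 3.82 to antibiotics replicate 1 and 0.33 to antibiotics replicate 3, 8 members passed (Cpt1a, Slc25a20, Cpt2, Acadl, Hadha, Plin2, Acsf2 and Pdk4), all lower, where 9.68% of all genes passed. Cpt1a also passed with median centring (adjusted p = 0.0246) and with the stricter filter (adjusted p = 0.0465), and Pdk4 with the deposited scaling (adjusted p = 0.00298). With the deposited scaling the adjusted p followed the size of the difference across the genes named here, whatever their spread. It therefore does not measure the spread of Pdk4, whose SD was 1.10 with antibiotics after quantile normalisation. Over the 14 alternatives tried, 20 of the 25 tested members kept the sign of their difference in every one, and Cpt1a lay between -0.74 and -0.53.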

How the data were processed

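The authors deposited one table of log2 expression values for 35557 probe sets on 6 arrays, made with RMA per the submitters' processing notes; no version, build or annotation is named in the sources used here. Since array medians differed, the values were quantile normalised again over 23410 probe sets that the platform table ties to a gene (21789 to a single gene). A floor for dim signal at the 40th percentile of probe-set means (5.81) left 12071 of 19938 genes.

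Groups came from the sample titles. The comparison used limma 3.58.1 (lmFit, then eBayes; R 4.3.3), two-sided and with no block, and p-values were adjusted by Benjamini-Hochberg over every gene tested, with a threshold of 0.05. The procedure was tested on simulated data with independent noise for each gene and no effect of array or run. That test therefore does not cover the differences in scaling between these arrays. SEs are limma's moderated ones, SDs are over 3 arrays, and 95% intervals are unadjusted; the number of arrays limits the precision. Alternatives were 2 other scalings, 2 other filters, the mean of probe sets, array weights, a replicate block, the common run and each array left out. Named genes are all members, up to 3 genes of each other list with the smallest p, and Epcam, Ptprc, Ppard and Acaa1a; some items are not reported here. Adipoq, Fabp4 and Lep were named after their values were seen, and several marker lists are given by their ranges alone. Members, lists and tests were chosen with earlier results of these data known.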

Additional observations from a re-analysis of the deposited data

How the results depend on the processing

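The median difference of the members was below 0 in every alternative, though not every alternative could change it. It was -0.32 relative to all genes with the deposited scaling and with median centring, which shift the median of all genes to -0.12 and -0.08, and lay between -0.30 and -0.19 with 1 array left out. The members that passed numbered 0, and 0 to 0 with 1 array left out; they were 1 with the deposited scaling, with median centring, with the stricter filter and in the common run, and 8 with array weights. Genes that passed over the whole table numbered 7, and 0 to 11 with 1 array left out. That count was 45 with the deposited scaling, 62 with median centring, 2 with no filter, 43 with the stricter filter, 1169 with array weights and 54 in the common run; the causes were not tested. In the limma fit without antibiotics replicate 1, where 0 genes passed, 1040 had an unadjusted p under 0.05, 10 members among them. With the deposited scaling 464 genes (3.84%) and 8 members had such a p.

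The sign of some differences changed. Acsl5 was -0.040 with the deposited scaling and median centring and -0.0066 with array weights, and Eci1 -0.0080, -0.0080 and -0.0036 there and -0.053 in the common run. Acaa1a was 0.055 with array weights and 0.087 in the common run, Acot9 0.035 and Epcam 0.048 in the common run. With 1 array left out, Acsl5 lay between -0.017 and 0.11, Eci1 between -0.031 and 0.12, Eci2 between -0.032 and 0.10, Bdh1 between -0.24 and 0.034, Decr1 between -0.21 and 0.022, Aacs between -0.018 and 0.29, Epcam between -0.075 and 0.026 and Acaa1a between -0.17 and 0.10. With the replicate block 7 genes and 0 members passed and the members' median was -0.26. Deviations of same-numbered arrays correlated at 0.021, -0.034 and -0.23, so no pairing by number was seen. With 3 arrays per group, and a common run that cuts across the numbers, this check cannot exclude a pairing. Of 6 arrays, 0 correlated best with the array of its own number. Values not called moved by over 1.5 times in several genes, the following among them. Abca1 was -0.17 without re-fed replicate 1 and -0.54 without re-fed replicate 3. Acot9 was -0.20 without re-fed replicate 1 and -0.15 without antibiotics replicate 3. Idh3a and Suclg1 were -0.13 and -0.12 without antibiotics replicate 2, and Idh3b and Ccna2 0.095 and 0.41 without antibiotics replicate 3. Oxct1 and Ehhadh were -0.019 and -0.030 without re-fed replicate 1, and Hadh -0.083 without antibiotics replicate 1.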
